A study of Mus musculus with 11 samples.

Results

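Glutathione genes were compared between kidney S3 proximal tubules of wild-type mice and of mice lacking Tamm-Horsfall protein (THP -/-). The 47 genes were chosen by what their products do: those that make glutathione, break it down, join it to other molecules, use it to reduce peroxides, or work beside it in glutaredoxin and glyoxalase reactions. Of these, 41 had a probe annotated with that symbol alone, out of 22180 genes so annotated, and for each the probe with the highest mean over all arrays was kept. Gsta1 and Gsta2 appear only on probes shared with each other and with other genes, Gstm5, Gstz1 and Esd only on probes shared with another gene, and Ggt1 matched no probe, so these 6 were not analysed here. Every array came from total RNA of mice of the strain 129/SvEv. The wild-type group held 6 arrays, 5 of them in batch 1, and the THP -/- group held 5 arrays, 3 of them in batch 1. The remaining arrays formed batch 2. Age, sex and the number of mice are not given in the sources used here, nor is the allele of the knockout. Where nothing ties each array to its own mouse, p-values measure only the spread between these arrays.

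Glutathione is a tripeptide of glutamate, cysteine and glycine that cells use as their main soluble thiol. Glutamate-cysteine ligase, built of the catalytic subunit Gclc and the modifier subunit Gclm, takes the rate-limiting step of its synthesis, and glutathione synthetase (Gss) adds glycine. The proximal tubule takes up the parts of filtered glutathione after brush-border enzymes have cleaved it, and it rebuilds the peptide inside the cell. Glutathione transferases attach it to reactive compounds, peroxidases spend it on hydrogen peroxide and lipid peroxides, and glutathione reductase (Gsr) returns the oxidised form.

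The deposited values were log2 signals with array medians from 3.85 to 4.01, and no measure of background came with them. Signals of different genes come from different probes, so their levels were not ranked against each other. Differences between genes within an array were used for Gclc against Gclm and Gss, and for the marker scores. The array medians served only to mark dim genes: 28 of the 41 genes lay above the median on every array. Umod, which encodes Tamm-Horsfall protein, read from 5.27 to 6.74 in wild type and from 3.68 to 5.27 in knockout, so the groups met at a single value. Knockout replicate 5 held that value. Of the S3 segment 7 of 9 markers lay above the median on every array, among them Slc7a13 and Slc22a7. So did 6 of 8 markers of the S1 and S2 segments and 7 of 8 markers of the thick ascending limb. Of the distal convoluted tubule and collecting duct 7 of 13 did. So did 4 of 7 endothelium, 2 of 4 podocyte, 2 of 6 fibroblast and mural and 3 of 9 leukocyte markers. Transcripts of neighbouring segments and other cell types may thus have given signal too, but the array median is not a background level. Fewer cells of a type and less RNA per cell cannot be told apart in such samples.

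All 5 synthesis genes had a fitted difference above 0, and none passed the threshold of an adjusted p of 0.05. Gclc had the largest difference of the 41 genes, 0.84 ± 0.28 (SE) on the log2 scale, which is 1.79-fold. The wild-type arrays of Gclc ran from 6.79 over a median of 7.28 to 8.20. In knockout Gclc read 8.26, 7.82, 8.77, 8.16 and 7.37 for replicates 1 to 5. The groups overlapped only through wild-type replicate 5, at 8.20: the next wild-type array, at 7.33, lay below the lowest knockout array, replicate 5 at 7.37. The 95% interval of the Gclc difference ran from 0.22 to 1.47, with an unadjusted p of 0.0129 and a limma adjusted p of 0.758 with Benjamini-Hochberg over all probes. The difference was 0.96 within batch 1 and 0.51 within batch 2. Without knockout replicate 3 it was 0.65 and the unadjusted p was 0.0517.

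Gss had a smaller and tighter difference. Its wild-type arrays ran from 7.02 over a median of 7.25 to 7.44, and its knockout arrays read 7.38, 7.74, 7.57, 7.70 and 7.35. Knockout replicates 2, 3 and 4 lay above every wild-type array, and the other two did not. The fitted difference was 0.30 ± 0.13 (SE), or 1.23-fold, with an unadjusted p of 0.0383 and a limma adjusted p of 0.79. The unadjusted p of Gss was at or above 0.05 in 13 of 24 other settings, among them the fits without wild-type replicate 2, 3, 4 or 6 and those without knockout replicate 2, 3 or 4. For Gclc that was so in 2 of 24.

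Gclm, whose subunit lowers the ligase's sensitivity to inhibition by glutathione, overlapped widely between the groups. It read from 6.18 over 7.33 (median) to 7.65 in wild type and 7.24, 7.33, 7.87, 7.96 and 7.39 in knockout. The lowest value belonged to wild-type replicate 4, and the other wild-type arrays started at 7.14. Its difference was 0.27 ± 0.26 (SE), with a limma adjusted p of 0.887. Gsr read from 6.86 over 7.30 to 7.57 in wild type and 7.09, 6.96, 7.69, 7.68 and 7.28 in knockout, a difference of 0.04 ± 0.19 (SE). Its sign changed under several other settings, so no direction is given for Gsr. Slc7a11, the cystine-glutamate exchanger, lay below the array median on all 11 arrays. It read from 2.17 over 2.35 to 2.50 in wild type and 2.40, 2.78, 2.58, 2.40 and 2.71 in knockout. Its difference was 0.23 ± 0.12 (SE), and a second Slc7a11 probe gave 0.07 ± 0.11, and since no background level came with either signal a fold is left out.

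**Figure D1:**
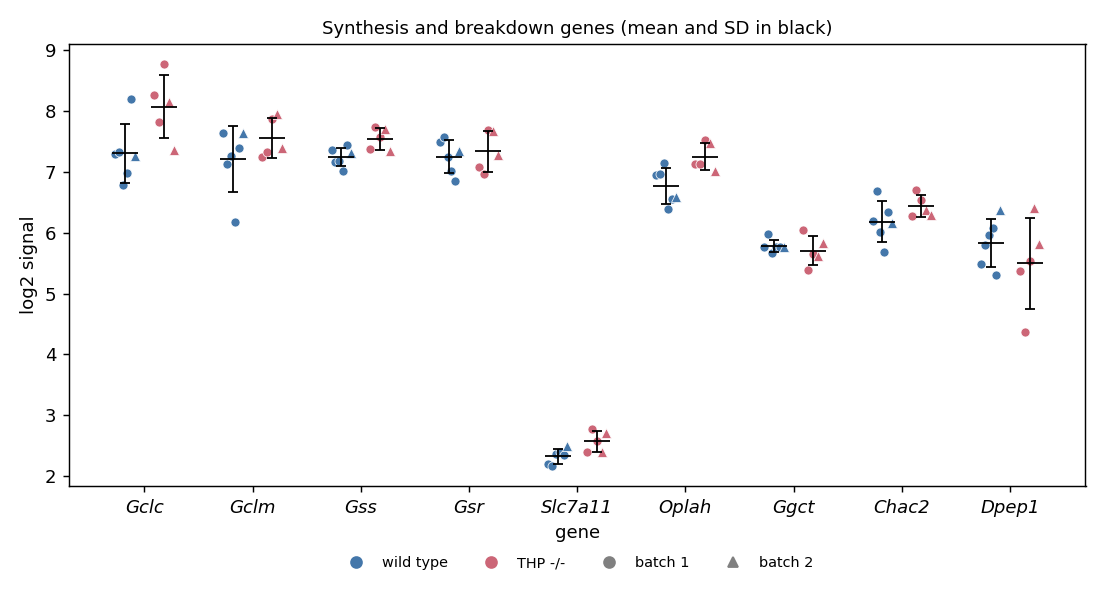
Log2 signal (vertical axis) of synthesis and breakdown genes (horizontal axis) in each array, with wild type in blue and THP -/- in red, circles for batch 1, triangles for batch 2, and the mean with its SD in black. Gclc and Oplah show the widest gaps between group means, and the points of the groups overlap for every gene.

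Gclc was also set against Gclm, its partner in the ligase, and against Gss, the next enzyme. These signals come from different probes, and whether the probes respond alike was not tested. The log2 signal of Gclc minus that of Gclm changed by 0.57 ± 0.29 (SE) more in knockout than in wild type, and a two-sided exact permutation test of genotype within batches gave p = 0.0774. Against Gss the Gclc difference was larger by 0.55 ± 0.28 (SE), with an exact permutation p of 0.0714, and both were 0.0774 after Benjamini-Hochberg over the 2 comparisons. The smallest p this design allows is 0.00595. The differences were 0.61 and 0.47 within batches 1 and 2 for Gclm, and 0.63 and 0.30 for Gss. With 1 array left out at a time the Gclm comparison ran from 0.45 to 0.68, with exact permutation p-values from 0.0476 (without wild-type replicate 4, wild-type replicate 5 or knockout replicate 2) to 0.179 (without wild-type replicate 6). The Gss comparison ran from 0.36 without knockout replicate 3 (exact permutation p = 0.175, the highest) to 0.75 without knockout replicate 2 (p = 0.0159, the lowest), and the only other p under 0.05 was 0.0381, without wild-type replicate 5. Without the batch term the differences were 0.42 (exact permutation p = 0.21) and 0.47 (0.117), and in batch 1 alone the p-values were 0.179 and 0.143. Neither comparison was run with the segment markers as a covariate.

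The segment markers differed between the genotypes in opposite directions by segment, and 0 of them were called by limma at an adjusted p under 0.05. All 9 S3 markers had a fitted difference above 0, with a median of 0.43, and 7 of 8 markers of S1 and S2 were below 0, with a median of -0.24. At an unadjusted p under 0.05 there was 1 in each list: Slc22a7 (1.11) of S3, higher in knockout, and Slc5a12 (-0.63) of S1 and S2, lower. Over all genes 3.64% were higher and 2.0% lower at that level. The mean of the S3 markers minus that of the S1 and S2 markers ran from 0.61 to 2.70 in wild type and from 1.33 to 3.20 in knockout. Wild-type replicate 5, the wild-type array with the highest Gclc, had the highest of the wild-type scores, 2.70. In knockout replicates 1 to 5 the scores were 1.63, 3.20, 2.81, 1.85 and 1.33, beside Gclc at 8.26, 7.82, 8.77, 8.16 and 7.37. With this score as a covariate the Gclc difference was 0.56 (unadjusted p = 0.0715) and the Gss difference 0.15 (0.213), whereas Gclm went to -0.03. The summed linear signal of the S3 markers was 5810 to 9263 in wild type and 6213 to 13788 in knockout, and that of the S1 and S2 markers 2294 to 6337 and 1994 to 5907. The part of segment composition in the Gclc and Gss differences was not tested beyond this covariate.

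Promoters of synthesis genes are shown because the antioxidant response element, the motif bound by NRF2, is known from glutathione genes. The sequences are from RefSeq (GRCm38.p6, C57BL/6J and not the strain of these mice), from upstream of a transcript start to just inside it. They are written 5′ to 3′ on the gene's strand, with matches to TGACNNNGC, on either strand, in capitals. Gclm lies at chr3:122245307-122245606 (plus strand), Gss at chr2:155592761-155593060 (minus strand) and Slc7a11 at chr3:50443564-50443863 (minus strand).
Gclm: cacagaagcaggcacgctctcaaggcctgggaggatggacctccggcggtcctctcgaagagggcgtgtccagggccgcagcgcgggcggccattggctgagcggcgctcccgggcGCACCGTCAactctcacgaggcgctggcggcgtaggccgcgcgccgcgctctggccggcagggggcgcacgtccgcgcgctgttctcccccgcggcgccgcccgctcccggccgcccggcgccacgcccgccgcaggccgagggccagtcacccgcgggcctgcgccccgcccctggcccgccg
Gss: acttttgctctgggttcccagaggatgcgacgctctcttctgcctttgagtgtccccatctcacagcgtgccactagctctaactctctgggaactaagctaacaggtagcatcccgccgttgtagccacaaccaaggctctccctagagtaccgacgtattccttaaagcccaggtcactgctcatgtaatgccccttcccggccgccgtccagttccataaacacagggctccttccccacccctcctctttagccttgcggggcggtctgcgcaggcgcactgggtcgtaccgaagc
Slc7a11: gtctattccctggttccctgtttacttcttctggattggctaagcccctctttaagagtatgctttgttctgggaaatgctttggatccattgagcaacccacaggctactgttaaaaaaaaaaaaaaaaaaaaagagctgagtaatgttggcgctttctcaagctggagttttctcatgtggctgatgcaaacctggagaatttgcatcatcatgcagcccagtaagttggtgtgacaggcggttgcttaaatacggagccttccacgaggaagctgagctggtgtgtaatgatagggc
Gclm held 1 match, on the reverse strand and beginning 134 bases before the start site. Gss and Slc7a11 held none in these windows. Of the 42 named genes with a promoter in the table, 8 held a match (Gclm, Ggct, Ggt1, Gsta3, Gstm5, Gstm7, Hagh and Mgst1), beside 14% of all 27025 genes. Counted by promoter, the motif was in 10 of 62 promoters of the named genes and in 12.4% of all promoters of the same length. Among the matched genes with a usable probe the fitted differences ran from -0.08 for Ggct to 0.42 for Gstm7. Gclc, Gsr, Oplah, Gsta4 and Gstt2 had no entry.

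Among the breakdown genes Oplah had the clearest difference and Dpep1 the opposite sign, and neither passed over all probes. Oplah, 5-oxoprolinase, recovers glutamate from the cyclic product of glutathione breakdown. It ran from 6.39 over 6.77 to 7.15 in wild type and read 7.13, 7.13, 7.52, 7.47 and 7.02 in knockout. Only wild-type replicate 3, at 7.15, reached the knockout values. The difference was 0.51 ± 0.17 (SE), or 1.42-fold, with a 95% interval from 0.13 to 0.89, an unadjusted p of 0.0131 and a limma adjusted p of 0.758. It was 0.46 within batch 1 and 0.66 within batch 2, and 0.48 with the segment score above as a covariate. Leaving out wild-type replicate 6 gave 0.46 (unadjusted p = 0.0527).

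Dpep1, the brush-border dipeptidase that splits cysteinylglycine, ran from 5.31 over 5.88 to 6.37 in wild type and read 5.37, 4.37, 5.54, 6.41 and 5.81 in knockout. Its difference of -0.53 ± 0.24 (SE) had an unadjusted p of 0.0517 and a limma adjusted p of 0.813. Knockout replicate 2 was the lowest array, and without it the Dpep1 difference was -0.27. Knockout replicate 2 also had the lowest mean of the S1 and S2 markers, 5.58 against 5.82 to 6.96 in the other arrays. With the segment score as a covariate the Dpep1 difference was -0.27 as well. With the mean of the thick ascending limb markers as a covariate it was -0.72, and without knockout replicate 3 it was -0.67. The part of segment composition in the Dpep1 difference was not tested further. Chac2, which cleaves glutathione in the cytosol, differed by 0.28 ± 0.18 (SE). Ggct, a cyclotransferase that acts on gamma-glutamyl amino acids, differed by -0.08 ± 0.13.

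Of 19 transferases measured, 14 had a difference above 0 and 5 below, beside 53.4% of all genes above 0. Their median was 0.05, against 0.01 over all genes. The differences ran from -0.34 to 0.42. Only 9 of 19 had the same sign in both batches, so no shared direction is given. Gsto1, an omega-class enzyme that reduces dehydroascorbate, had the smallest p. Its wild-type arrays ran from 4.03 over 4.36 to 4.92, and the knockout arrays read 4.0, 4.08, 4.22, 4.23 and 4.10, all below the wild-type median. Its difference was -0.34 ± 0.13 (SE), with an unadjusted p of 0.0253 and a limma adjusted p of 0.769. It was -0.19 within batch 1 and -0.76 within batch 2, where the single wild-type array held the highest Gsto1 value. Without that array, wild-type replicate 6, only batch 1 compares the genotypes. The difference was thus again -0.19, with an unadjusted limma p of 0.174. The neighbouring gene Gsto2 was below the array median on all arrays and differed by -0.15 ± 0.11.

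The mu-class genes lie side by side in the genome and resemble each other in sequence, so their probes may share signal. Of 6 measured, 5 had a difference above 0, with a median of 0.22, but only 2 kept their sign across batches. Gstm1 ran from 6.43 over 7.13 to 7.53 in wild type and read 7.29, 7.53, 7.40, 6.98 and 7.08 in knockout, within the wild-type range. Its difference was 0.21 ± 0.21 (SE), 0.35 within batch 1 and -0.18 within batch 2. Gstm7 had the highest difference of the transferases, 0.42 ± 0.28, but it was 0.78 within batch 1 and -0.60 within batch 2. Gstm2 and Gstm4, which are described here because their batches opposed each other most, were at -0.17 and -0.18 within batch 1 and at 1.27 and 1.36 within batch 2. For Gstm2 the high knockout arrays of batch 2 read 5.55 and 4.35, against 3.68 in the wild-type array. For Gstm4 that wild-type array was the lowest of all, at 4.17.

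Of the alpha class, Gsta4, which conjugates the lipid peroxidation product 4-hydroxynonenal, ran from 4.88 over 5.22 to 5.65 in wild type and read 4.87, 5.36, 5.09, 5.59 and 5.03 in knockout. Its difference was -0.14 ± 0.17 (SE), and that of Gsta3 was 0.12 ± 0.14. Gstp1, the pi-class enzyme, was the most variable of the 41 genes by its SE. It ran from 4.25 over 5.24 to 6.61 in wild type and read 4.75, 4.48, 5.97, 5.88 and 6.06 in knockout, for a difference of 0.02 ± 0.41 with no stable sign. Gstp2, its close copy, differed by 0.08 ± 0.11, and the 2 genes may share signal. The theta-class genes Gstt1, Gstt2 and Gstt3 differed by -0.05, 0.01 and 0.05. The mitochondrial and peroxisomal Gstk1 was at 0.12, and the membrane-bound Mgst1, Mgst2 and Mgst3 were at 0.05, 0.003 and 0.24. For none of these 7 did the unadjusted p fall under 0.265.

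Of the 7 peroxidase differences 2 were above 0, beside 53.4% of all genes, and the median was -0.05. Only 2 of 7 had the same sign in both batches, so no common direction is given. Gpx1, the main cytosolic peroxidase for hydrogen peroxide, ran from 9.66 over 10.47 to 10.82 in wild type and read 9.23, 9.44, 10.77, 10.58 and 10.43 in knockout. Knockout replicates 1 and 2 lay below every wild-type array, and the others lay inside the wild-type range. The Gpx1 difference was -0.34 ± 0.32 (SE), with a limma adjusted p of 0.885, -0.50 within batch 1 and 0.12 within batch 2. It was -0.10 without knockout replicate 1, -0.17 without knockout replicate 2 and -0.63 without knockout replicate 3.

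Gpx3, the peroxidase that proximal tubules secrete into plasma, ran from 6.86 over 8.02 to 8.35 in wild type and read 7.64, 7.53, 8.15, 8.06 and 7.97 in knockout. The knockout arrays lay within the wild-type range, and the difference was -0.06 ± 0.26 (SE) with a 95% interval from -0.63 to 0.51. Gpx4, which reduces lipid peroxides in membranes, ran from 6.91 over 7.23 to 7.49 in wild type and read 7.29, 7.68, 7.63, 7.40 and 7.29 in knockout. Its difference was 0.24 ± 0.14 (SE), with a limma adjusted p of 0.826, 0.38 within batch 1 and -0.15 within batch 2. Gpx2, Gpx6, Gpx7 and Gpx8, known from the gut, the olfactory epithelium and the endoplasmic reticulum, were near or below the array median. Their differences ran from -0.16 for Gpx8 to 0.10 for Gpx7, and no fold is given.

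**Figure D2:**
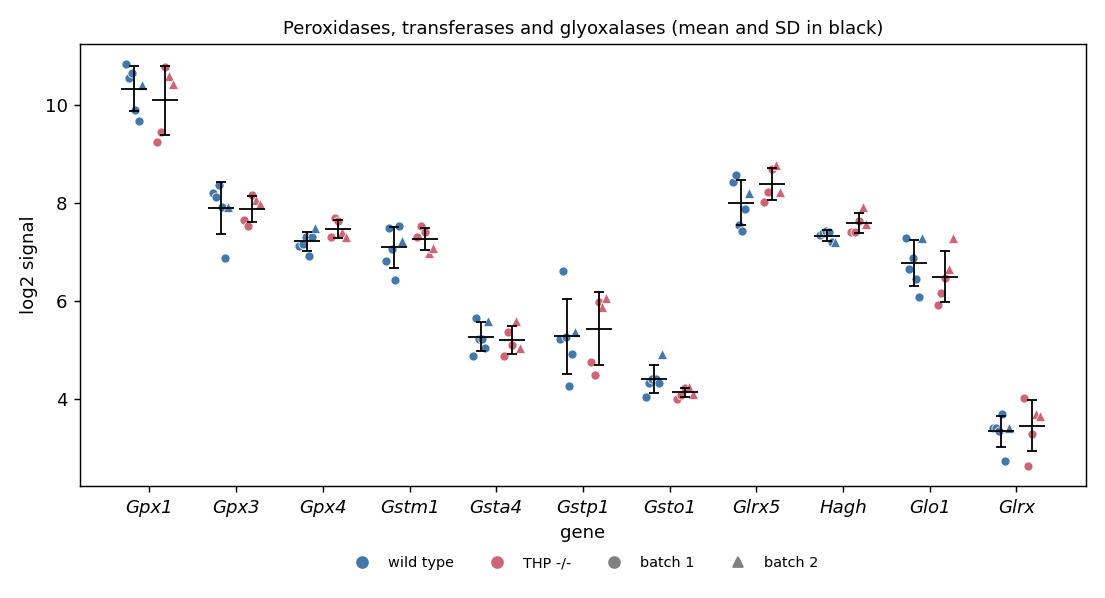
Log2 signal (vertical axis) of peroxidases, transferases, glyoxalases and glutaredoxins (horizontal axis) in each array, coloured and marked by genotype and batch, with the mean and SD in black. Knockout replicates of Gsto1 cluster between 4.0 and 4.23, while Gpx1 and Gstp1 spread widely in both groups.

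Glyoxalase genes pointed in opposite directions. Glo1, which converts the adduct of methylglyoxal and glutathione, ran from 6.07 over 6.76 to 7.27 in wild type. It read 5.91, 6.15, 6.47, 6.64 and 7.27 in knockout. Its difference was -0.44 ± 0.22 (SE), or 1.36-fold towards lower signal, with an unadjusted p of 0.0741 and a limma adjusted p of 0.823. Hagh, which performs the next step and frees the glutathione, ran from 7.19 over 7.37 to 7.43 in wild type and read 7.41, 7.41, 7.62, 7.91 and 7.57 in knockout. Its groups overlapped only through wild-type replicates 3 and 4, and the difference was 0.24 ± 0.12 (SE), with an unadjusted p of 0.0756 and a limma adjusted p of 0.823. For Hagh it was 0.13 within batch 1 and 0.55 within batch 2. Whether Glo1 and Hagh differ from each other was not tested.

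Glrx5, a mitochondrial glutaredoxin of iron-sulfur cluster assembly, ran from 7.43 over 8.03 to 8.56 in wild type and read 8.01, 8.22, 8.68, 8.77 and 8.22 in knockout. Its difference was 0.33 ± 0.24 (SE), and a second Glrx5 probe gave 0.12 ± 0.17. Glrx, the cytosolic glutaredoxin, was dim, from 2.73 over 3.41 to 3.69 in wild type and at 4.02, 2.63, 3.28, 3.69 and 3.64 in knockout. Its difference was 0.06 ± 0.25 with no stable sign. The mitochondrial Glrx2 was at 0.08 and the iron-handling Glrx3 at 0.26.

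**Figure D3:**
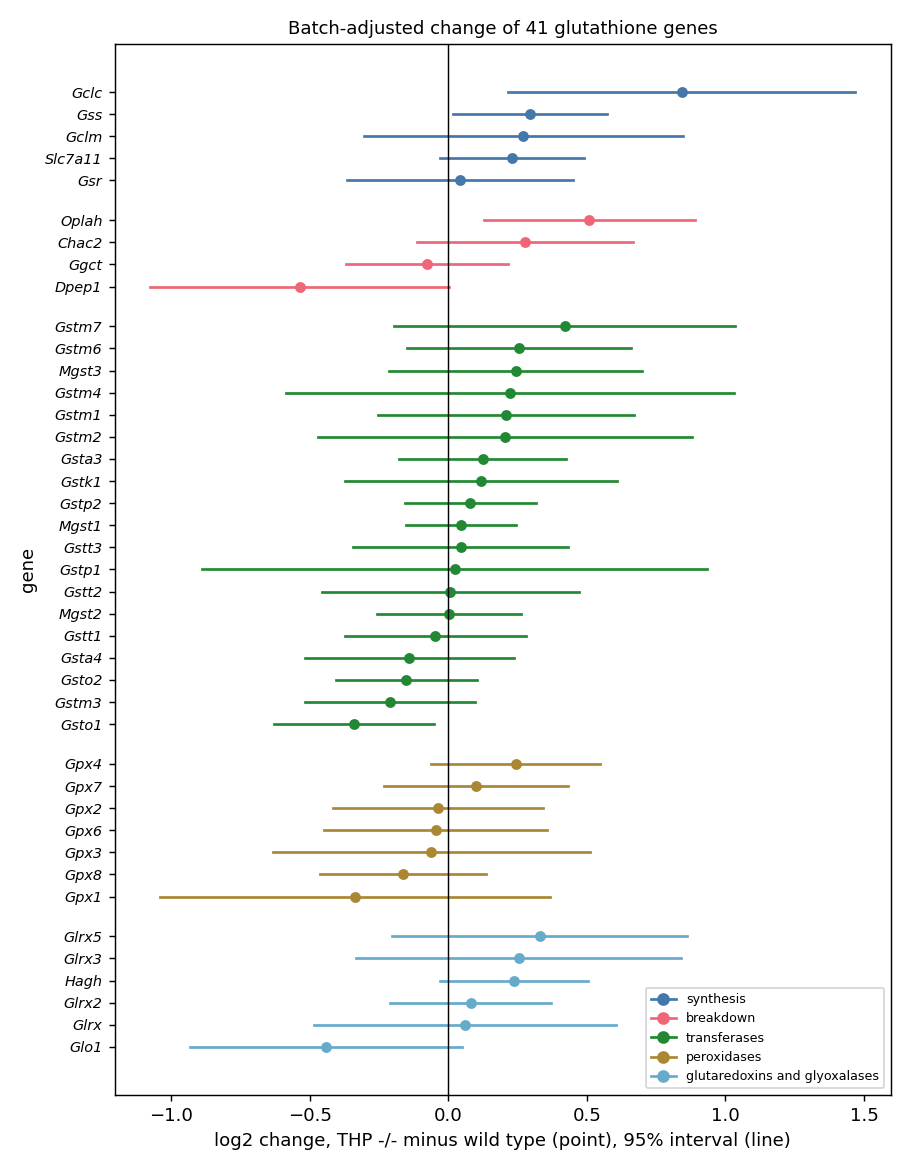
Batch-adjusted log2 difference, knockout minus wild type (horizontal axis), for 41 glutathione genes (vertical axis) grouped and coloured by step, with points for the estimate and lines for the 95% interval. The intervals of Gclc, Gss and Oplah lie above 0 and that of Gsto1 below it, and the others cross 0.

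Across all measured glutathione genes, 0 of 41 were called by limma at an adjusted p under 0.05, as were 0 of all 41345 probes (0%), of which 2546 had an unadjusted p under 0.05. At that unadjusted level 3 of 41 glutathione genes were higher in knockout (Gclc, Gss and Oplah), beside 3.64% of all genes. In the other direction 1 of 41 was lower (Gsto1), beside 2.0% of all genes. Of the 41 differences 28 were above 0, whereas 53.4% of all genes were, and the median was 0.08 against 0.01 over all genes. No glutathione gene had every knockout array above every wild-type array, as 0.433% of all genes did, and none had every knockout array below, as 0.194% did. By step the medians were 0.27 for synthesis, 0.10 for breakdown, 0.05 for transferases, -0.05 for peroxidases and 0.16 for glutaredoxins and glyoxalases. The same sign in both batches was found in 5 of 5 synthesis and 4 of 4 breakdown genes, but in 2 of 7 peroxidases. In total 23 of 41 kept their sign. Some of these values lay near 0, such as Gsr at 0.013 within batch 1 and Gclm at 0.035 within batch 2. Batch 2 held 1 wild-type array, and the share of all genes that kept their sign was not computed.

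**Figure D4:**
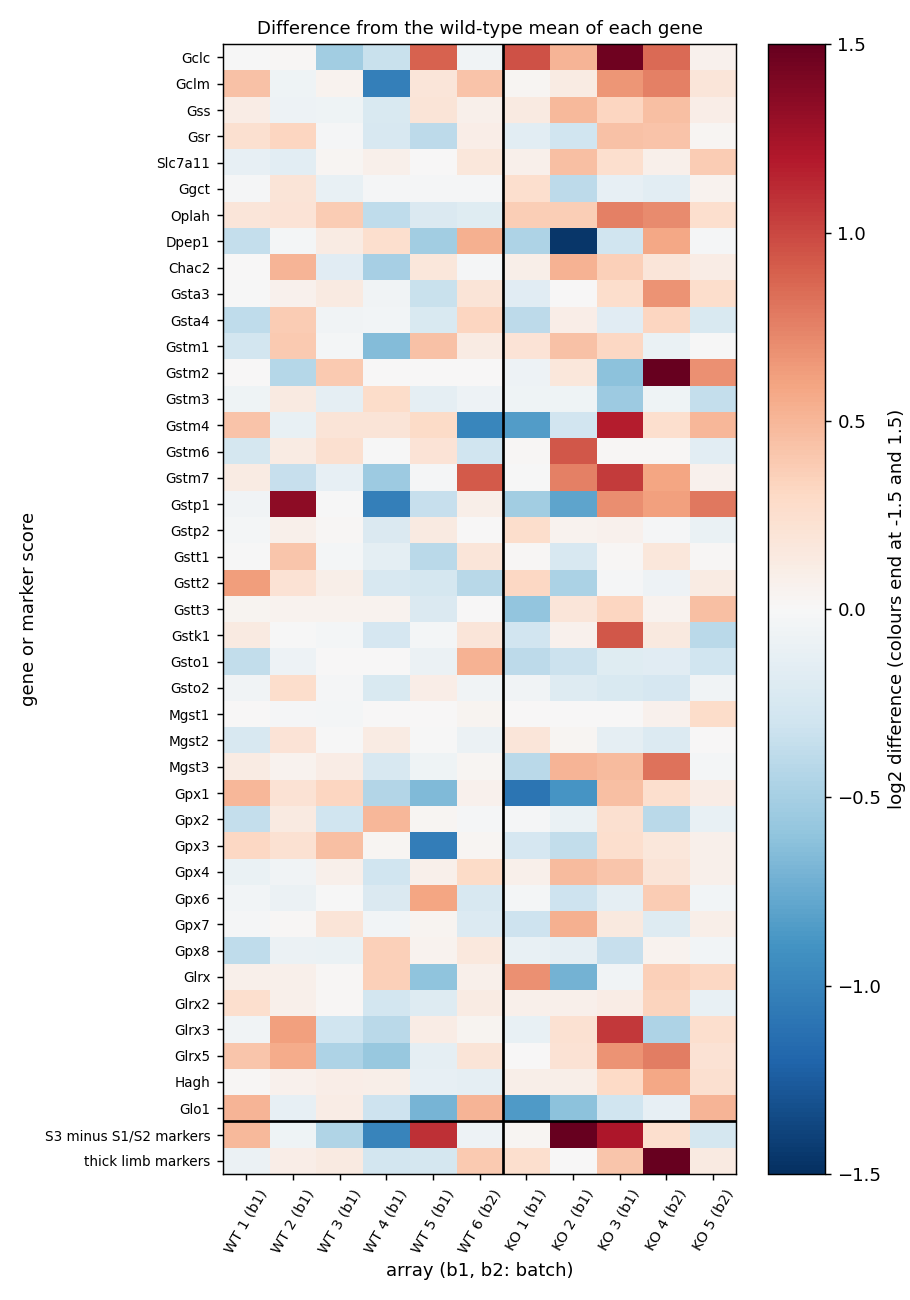
Log2 difference of each array (horizontal axis, with batch) from the wild-type mean of each of 41 glutathione genes and 2 marker scores (vertical axis), in red where higher and blue where lower. Wild-type replicate 4 is blue across many genes, and knockout replicate 4 has the reddest thick ascending limb score.

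Arrays of one genotype differed among themselves. Wild-type replicate 4 held the lowest value of all arrays for 11 of the 41 genes, and its median deviation from the wild-type mean was -0.21. That array also had the lowest of the S3 minus S1 and S2 scores, 0.61. The highest median deviations, 0.25 and 0.19, belonged to knockout replicates 3 and 4. In knockout replicate 4 the thick ascending limb markers averaged 7.22, against 5.02 to 5.71 in all other arrays. Distal convoluted tubule and collecting duct markers averaged 5.84 there, against 4.13 to 4.76. Endothelium (4.91) and fibroblast and mural markers (4.47) were also highest in that array. A fitted difference above 0 was found in 7 of 8 thick ascending limb and 8 of 13 distal and collecting duct markers, beside 53.4% of all genes. At an unadjusted p under 0.05 each of these 2 lists had 1, Cldn19 (0.50) and Calb1 (0.76), both higher, beside 3.64% of all genes. The summed linear signal of the thick ascending limb markers was 287 to 535 in wild type and 369 to 2253 in knockout. With the thick ascending limb mean as a covariate Gclc differed by 0.71, Gss by 0.25, Oplah by 0.36 and Gsto1 by -0.35. The part of that segment in these differences was not tested further. Of 9 leukocyte markers 5 had a difference above 0, and 1, Csf1r (0.58), had an unadjusted limma p under 0.05. The distal, endothelium, fibroblast and leukocyte markers were not used as a covariate.

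Other genes of the pathway were read from lists on cysteine supply, conjugate transport, mercapturate formation, NADPH, selenoprotein synthesis and regulators. Of 75 named, 72 were measured, and 0 were called by limma over all probes. A difference above 0 was found in 46 and below 0 in 26, beside 53.4% of all genes above 0. The median difference was 0.06. At an unadjusted p under 0.05 there were 3 of 72, all higher in knockout, beside the 3.64% of all genes given above, so the count was near the background, and the 3 are given as values only. Lap3, a leucine aminopeptidase that can cleave cysteinylglycine, differed by 0.50 ± 0.16 (SE; 0.58 within batch 1 and 0.27 within batch 2). Sepsecs, which forms selenocysteine on its transfer RNA as peroxidases such as Gpx1 and Gpx4 need, differed by 0.40 ± 0.13. Nfe2l1, a transcription factor related to NRF2, differed by 0.39 ± 0.16. Of the 8 regulators 7 were above 0, but their median was 0.07. Nfe2l2, which encodes NRF2 itself, was at 0.28 ± 0.16, with 0.06 in batch 1 against 0.90 in batch 2, and Keap1, which holds NRF2 back, at 0.01 ± 0.10. NADPH-supplying genes had a median of 0.21, with 5 of 7 above 0, and 3 of 7 had the same sign in both batches. The highest were Taldo1 (0.47 ± 0.23) and Pgd (0.42 ± 0.22) of the pentose phosphate pathway. Pgls of the same pathway was at -0.12 ± 0.20 and Idh2 at -0.09 ± 0.21. Cysteine supply genes had a median of 0.25, and 7 of 11 were above 0.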

How the data were processed

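Per the labels' protocols, a Picopure kit served for RNA extraction from S3 tubules and the WT Pico kit of Affymetrix for labelling with biotin. The authors deposited log2 values, with Partek 6.6 and RMA named in the submitters' processing notes. RMA in its usual form corrects background, equalises array distributions and summarises each probe set. The genome build of the annotation and any batch correction are not given in the sources used here. Of 41345 probes, 23521 carried 1 gene symbol, 1814 several and 16010 none in the platform annotation.

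Every probe entered a single limma 3.58.1 fit in R 4.3.3, with genotype and batch as fixed terms, eBayes and no filter. Tests were two-sided. Adjusted p-values are Benjamini-Hochberg values across the whole array, read at 0.05. There were 8 residual and 2.90 prior degrees of freedom, and the script was tested on simulated data. Folds are 2 to the power of the log2 difference. Values in every array were to be given for genes with an unadjusted p under 0.05 and for 15 key genes, of which Ggt1 and Gsta2 had no usable probe, with the extremes of a step and the other pathway genes under 0.05 named. Chac2, Hagh, Glrx5, Gstm2, Gstm4, Nfe2l2, Keap1, Taldo1, Pgd, Pgls and Idh2 were added after their values were seen. The genes and lists were chosen with earlier results of these data known. Alternatives changed the batch term (none, random, or batch 1 by itself), added the replicate block, or changed the scaling (quantile, median). Others left out dim probes, changed the prior, weighted arrays, averaged probes, adjusted over 1 probe per gene, or left out each array. The 2 marker covariates were chosen after seeing the data. Background correction could not be varied because only processed values were used. Plots were drawn with matplotlib 3.10.9.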

Additional observations from a re-analysis of the deposited data

Results flagged for a closer look

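Single arrays stood apart from the rest of their group for 8 glutathione genes. They were found by setting the gap to the nearest array against the range of the group in 82 groups of values, where chance gives about 1 in 20. In wild type, replicate 4 read 6.18 for Gclm, below the 7.14 to 7.65 of the others, and replicate 2 read 5.98 for Ggct, above 5.67 to 5.77. Wild-type replicate 5 accounted for 4 of the 8. It read 6.86 for Gpx3 (others 7.92 to 8.35), 4.29 for Gstt3 (4.51 to 4.56), 2.73 for Glrx (3.35 to 3.69) and, towards higher signal, 4.04 for Gpx6 (3.20 to 3.44). In knockout, replicate 2 read 4.38 for Gstm6 (3.29 to 3.47) and replicate 5 read 4.65 for Mgst1 (4.38 to 4.44). Gpx6, Glrx and Gstm6 are dim genes.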

How the results depend on the processing

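The count of called glutathione genes stayed at 0 under every other setting, while 3 to 6 had an unadjusted p under 0.05 and 20 to 30 had a difference above 0. Gclc, Gss, Oplah, Gsto1, Glo1, Gpx1, Gpx4, Dpep1, Hagh, Glrx5, Chac2, Gsta4, Gstm7 and Slc7a11 kept their sign in every setting that gave a value. The Gclc difference ran from 0.56 (segment covariate) to 1.14 (replicate block) and from 0.65 to 0.99 with 1 array left out. Probes called over the whole array numbered 3 in batch 1 alone and 0 to 11 with 1 array left out, 11 of them without knockout replicate 5. With probes averaged per gene, 1 of 22180 genes was called. The transferase median was -0.027 in batch 1 alone and -0.08 with the replicate block. With 1 array left out it ran from -0.027 to 0.18, highest without knockout replicate 1. It was lowest without wild-type replicate 6, which leaves only batch 1 to compare the genotypes. The difference between Gclc and Gclm ran from 0.45 to 0.68, and that between Gclc and Gss from 0.36 to 0.75, with 1 array left out. Signs turned for Gsr, Gstp1, Gpx3 and Glrx, whose differences lay near 0. They also turned, in 1 setting each, for Gclm (0.27) and Gstm1 (0.21). In batch 1 alone Gstp1 was at -0.19 and Glrx at -0.008. With the replicate block Gsr was at -0.19, Gstp1 at -0.63 and Glrx at -0.08. After quantile normalization Gsr was at -0.060 and Gstp1 at -0.015. With the S3 minus S1 and S2 covariate Gclm was at -0.033, Gstm1 at -0.0099, Gstp1 at -0.021 and Gpx3 at 0.14. With the thick ascending limb covariate Gsr was at -0.10, Gstp1 at -0.14 and Glrx at -0.0027. With 1 array left out the ranges were -0.10 to 0.15 for Gsr, -0.24 to 0.28 for Gstp1, -0.24 to 0.034 for Gpx3 and -0.17 to 0.31 for Glrx. The cause was not tested. Same-numbered arrays were not treated as pairs. Their deviations from the group means correlated from -0.27 to -0.02, and no array correlated best with its own number. With batch removed as well, the correlations ran from -0.18 to 0.08. The replicate block with the batch term rests on the pairs numbered 1 to 3, since pairs 4 and 5 lie across batches and wild-type replicate 6 has no partner. With it Oplah was at 0.24, Gsto1 at -0.15 and Gpx1 at -0.86, and 3 genes (Gclc, Gpx1 and Glo1) had an unadjusted p under 0.05, and 1 of them, Gclc, was among the 4 without it. The 2 comparisons of Gclc with its partners have no value under a random block, replicate block, array weights or another prior, nor with either marker covariate, since permutation within batches was used. The small number of arrays limits precision: the SE of a glutathione gene had a median of 0.18.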

Other observations

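Some deposited values recur exactly. Mgst1 read 4.38 on 6 of 11 arrays, and its wild-type arrays ran only from 4.34 to 4.41. Gstm2 read 3.68, Gstm3 4.15, Gstt3 4.56, Gsto2 3.32 and Gpx4 7.29 on 4 arrays each. In all, 6 of 41 glutathione genes (14.6%) and 16.4% of all genes had at least 4 arrays at a single value to 2 decimals. The SD of such a gene rests on fewer distinct values than arrays.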
